A study of Mus with 8 samples.

Results

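Skin treated with microsphere keratin was compared with untreated skin in mice, using the 2 arrays labelled sphere keratin and the 2 labelled no treat, 4 of the 8 arrays of the series. All animals were male C57BL6 mice, 6 weeks old at the start and 7 weeks old in the experiment after a week of acclimatisation. They were allotted at random to groups of 5. The hair was trimmed and removed, and the agents were put on the skin for 20 days. The untreated group received MilliQ water and the microsphere group 1% microsphere keratin. The other groups received 1% minoxidil, the positive control, or 1% keratin, the structural protein of hair. The arrays of the keratin group share the estimate of spread below. RNA came from whole treated skin with its follicles. Each group has 2 arrays, numbered 1 and 2, and the labels do not say whether these were separate animals, pools or repeat hybridisations. The p-values below therefore measure only the spread between arrays, which may be technical. Precision is limited by having 2 arrays a group. The labels name no group that received spheres without keratin.

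A hair follicle cycles through growth, regression and rest. In growth, matrix cells at its base divide under signals such as Sonic hedgehog and WNT, and their daughters fill with hair keratins and keratin-associated proteins, which cross-link into the shaft, while melanocytes hand over pigment. Each follicle carries a sebaceous gland, whose cells make long-chain fatty acids, wax esters and other lipids and release them by bursting. The dermis around it is collagen-rich matrix made by fibroblasts, with a thin sheet of striated muscle beneath.

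Values are the deposited linear intensities, 1 probeset per gene, and differences are on the log2 scale as microsphere minus untreated. The lowest intensity on the 4 arrays was 20.0 to 22.5 and only genes with a mean of at least 35.2 were tested, so folds of dim genes are understated. Before any comparison, untreated array 1 stood apart. Over all probesets its correlations with the remaining 3 ran from 0.899 to 0.918, while untreated array 2 and microsphere array 2 correlated at 0.982. Its 3′ beta-actin control read 656 against 1448 to 1679 in the other 3. Its reading of BioB, a bacterial transcript added at hybridisation, was 738 against 96.3 to 208. It was the lowest of the 4 arrays for 7178 of the 11235 genes tested (63.9%). Results are therefore given for each same-numbered pair, for both crossed pairs and against untreated array 2 alone. In bulk skin, fewer cells of a type and less RNA per cell cannot be told apart. Markers of epidermis, hair shaft, inner root sheath, bulge, sebaceous gland, fibroblasts and melanocytes were measured above the filter. Of 5 defining dermal papilla markers only 1, Corin, was, so the presence of those cells could not be checked from them, and the wider dermal papilla list below is a count of genes.

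No gene passed the test. Across 11235 genes the lowest adjusted p in limma, after Benjamini and Hochberg, was 0.999, so 0 genes were below 0.05 (0.0%). Unadjusted, 55 genes (0.49%) were below 0.05, 37 of them higher with microspheres (0.329%) and 18 lower (0.16%). No exact permutation p is given, because 2 arrays against 2 allow none under 0.333 (two-sided). The words higher and lower below describe means or arrays, not tested changes. The median difference over all genes was 0.10, with 8520 genes (75.8%) above 0. It was 0.17 in the number 1 pair, 0.02 in the number 2 pair, -0.08 for microsphere array 1 against untreated array 2, and 0.26 for microsphere array 2 against untreated array 1. Against untreated array 2 alone, the microsphere mean was above it for 4662 genes (41.5%). Both microsphere arrays lay above both untreated arrays for 1646 genes (14.7%) and below both for 589 (5.24%). The higher share of these separated genes was 73.6%, 55.9% after quantile normalization and 83.7% after normexp background correction. In both same-numbered pairs 4456 genes were higher (39.7%) and 1209 lower (10.8%). In both crossed pairs 2746 were higher (24.4%) and 888 lower (7.9%).

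Few differences were large in both pairs. An excess of 1.5-fold or more within the number 1 pair and again within the number 2 pair was seen for 5 genes (0.0445%), and a deficit of that size for 0 (0.0%). They were Col1a1 and Dcn, encoding a chain of type I collagen and the collagen-binding proteoglycan decorin, Chd7, a chromatin remodeller, Hnrnpa3, an RNA-binding protein, and Tkt, the transketolase of the pentose phosphate pathway. Dcn, Hnrnpa3 and Tkt were chosen for naming after their values were seen. Dcn read 455 and 322 in untreated arrays 1 and 2 and 737 and 487 in microsphere arrays 1 and 2. Hnrnpa3 read 158 and 384 without and 249.7 and 581 with microspheres, and Tkt 126 and 340.2 without and 199 and 537 with. The Dcn arrays separated by group, whereas for Hnrnpa3 and Tkt untreated array 2 was above microsphere array 1. With the arrays crossed, such an excess in both pairs was seen for 20 genes (0.178%) and such a deficit for 1 (0.0089%), the chaperone gene Hspa5. No gene reached 2-fold in both pairs under either pairing (0.0%).

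**Figure D1:**
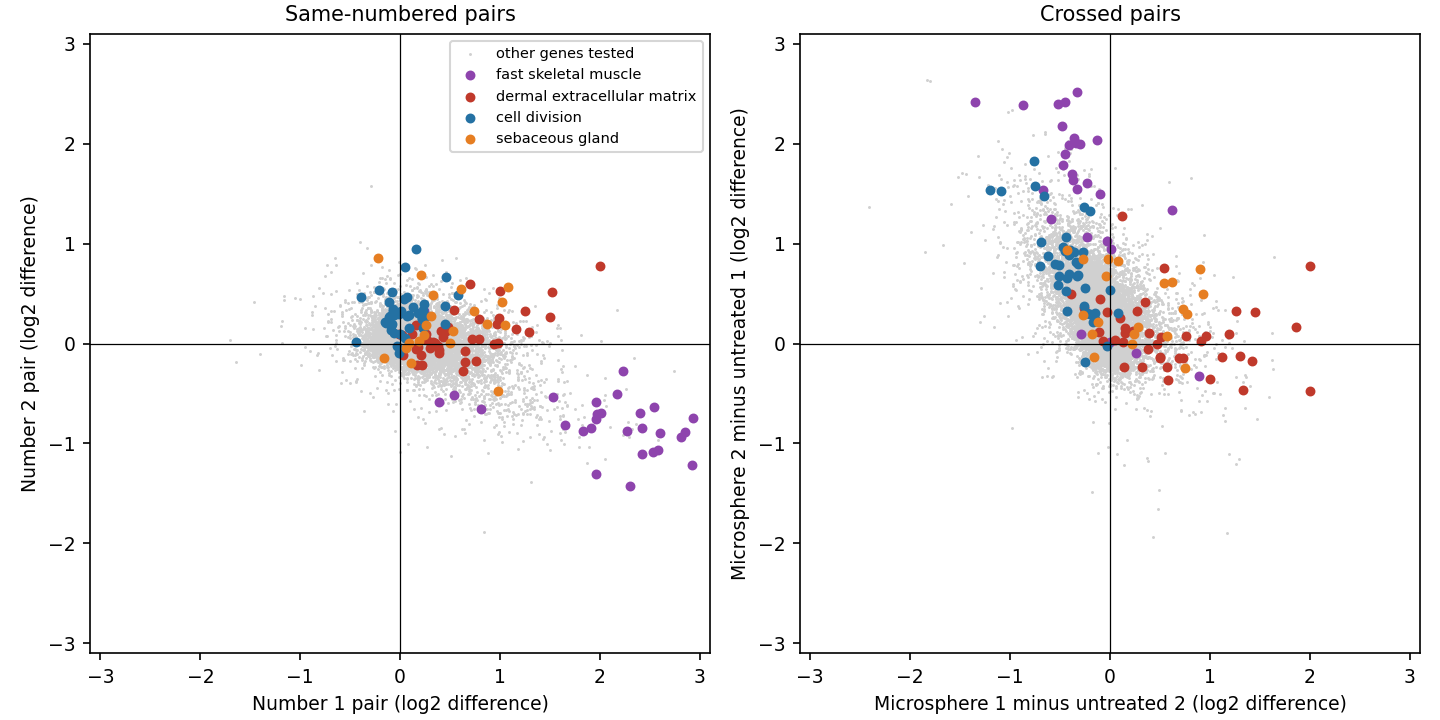
Log2 differences, microsphere minus untreated, of the 11235 genes tested (grey) and of 4 gene lists (colours), with each same-numbered pair on an axis at left and each crossed pair at right. Fast skeletal muscle genes lie far right and below 0 at left. Extracellular matrix genes spread along the pairs that hold microsphere array 1, cell division genes along those that hold microsphere array 2. At left 15 of 20 sebaceous gland genes lie above 0 on both axes. At right 12 of them lie above 0 on the horizontal axis and 17 on the vertical axis.

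The 4 genes with the widest gap between the groups were Col1a1, Scd1, Mgll and Fa2h, all higher with microspheres. Col1a1 (probeset 1455494_PM_at), which encodes the alpha 1 chain of type I collagen, read 144 in untreated array 1, 145 in untreated array 2, 578 in microsphere array 1 and 247 in microsphere array 2. Both treated arrays were higher, array 1 far more so than array 2. The mean difference was 1.39 ± 0.63 (SE, n = 2), a 2.62-fold difference, with a limma adjusted p of 0.999, and both of its probesets separated the groups. Scd1 (probeset 1415964_PM_at), the stearoyl-CoA desaturase that makes monounsaturated fatty acids and is abundant in sebaceous glands, read 136 and 154 without and 286 and 227 with microspheres, a mean difference of 0.82 ± 0.53 (SE, n = 2). Mgll, a monoacylglycerol lipase, read 71.5 and 79.5 without and 128 and 116 with, a 1.62-fold difference. The groups did not overlap for either gene, and in the same-numbered pairs Scd1 differed 2.11-fold and 1.48-fold and Mgll 1.79-fold and 1.46-fold.

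Fa2h (probeset 1426960_PM_a_at), which hydroxylates fatty acids for sphingolipids of skin and sebum, gave the most even pair of treated arrays among these genes. It read 59.3 and 62.1 without and 90.5 and 90.3 with microspheres. The differences were 0.61 and 0.54 in the same-numbered pairs and 0.54 and 0.61 in the crossed pairs. Elovl5, an elongase of polyunsaturated fatty acids, read 101 and 127 without and 201 and 173 with, and Elovl4, an elongase of very long-chain fatty acids needed for the skin barrier, read 53.6 and 56.8 and 109 and 75.5. The remaining genes of the 12 with the widest gap were Ifitm2, an interferon-induced membrane protein, Cfdp1, a chromatin-associated protein, Rps4l, a ribosomal protein gene, Chd7, Ift27, a part of the intraflagellar transport machinery of cilia, and Rarres1, a retinoid-responsive gene. Rps4l read 33.6 and 36.01 without and 49.5 and 47.9 with microspheres, and Ift27 37.2 and 44.96 and 57.03 and 58.4, with all 3 probesets of Ift27 separating the groups. Chd7 read 122 and 142 and 185 and 219.8, but only 1 of its 2 probesets separated them. Tex9, a testis-expressed gene, had the lowest unadjusted p of the fit, 0.00905 in limma, and an adjusted p of 0.999. It read 37.8 and 36.2 without and 46.9 and 50.1 with, and 1 of its 2 probesets separated the groups.

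Genes lower with microspheres differed less. The widest gap between groups was 0.33 on the log2 scale, for Twf2, an actin-binding twinfilin, against 0.77 for Col1a1 among the higher genes. Twf2 read 181 and 189.7 without and 127 and 144 with microspheres, in 1 of its 2 probesets. Hspa5, the main chaperone of the endoplasmic reticulum, had the largest mean difference downward of the named genes at -0.91 ± 0.46 (SE, n = 2). It read 363 and 229 in untreated arrays 1 and 2, and 116 and 201 in microsphere arrays 1 and 2. The number 1 pair carried most of it, at -1.64 against -0.19 in the number 2 pair, and its other probeset overlapped. Rb1cc1, a gene needed to start autophagy, read 84.5 and 98.8 without and 64.2 and 71.2 with, lower in both of its probesets. Malat1, an abundant nuclear long noncoding RNA, read 1157 and 1340.2 without and 850.0 and 1024 with, lower in 2 of 7 probesets. Nr4a2, an early-response nuclear receptor, read 48.4 and 51.9 without and 42.00 and 39.99 with, lower in 2 of 4 probesets. Klhdc2, Chrna3, Psd2, Wdr91, Gpr85, Abcg4 and Samd5 complete the 12, with gaps of 0.17 to 0.25.

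**Figure D2:**
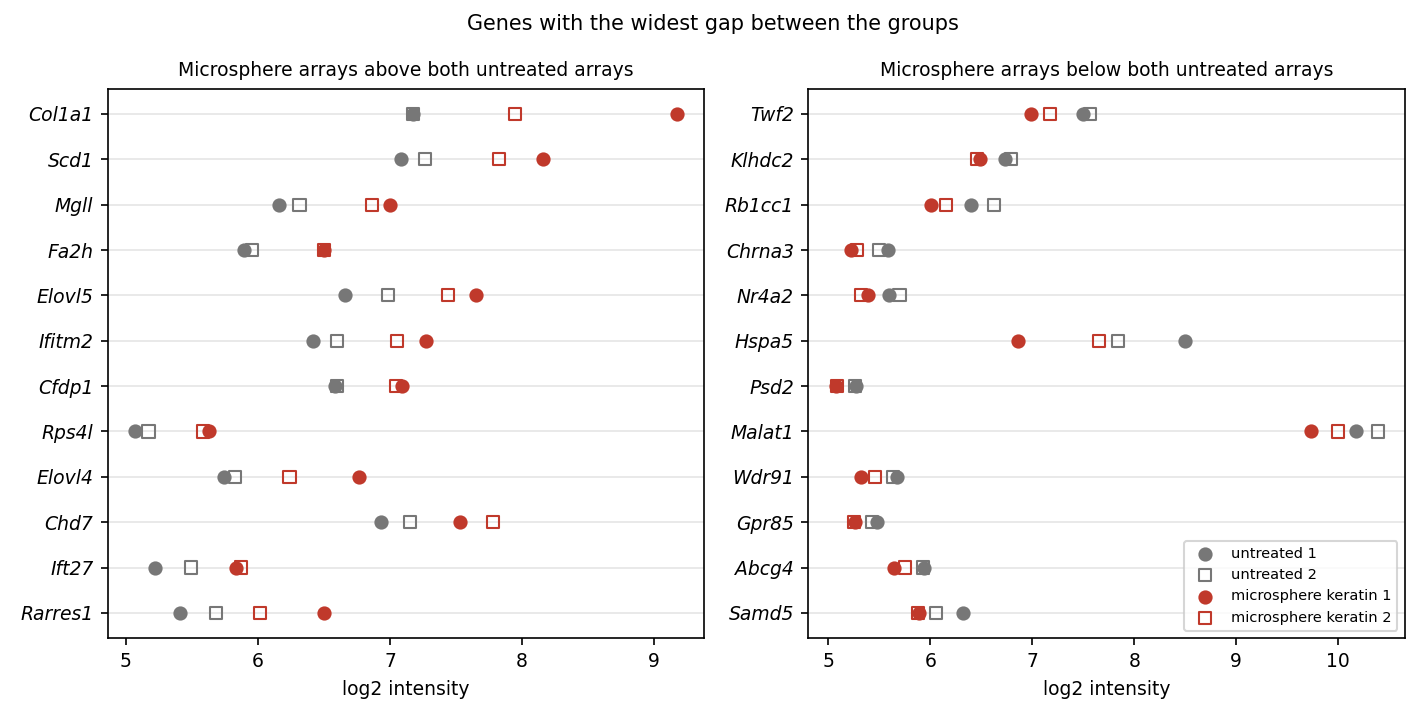
Log2 intensity (horizontal axis) of the 12 genes with the widest gap upward (left) and downward (right) in the 4 arrays, grey for untreated and red for microsphere keratin, circles for array 1 and squares for array 2. Col1a1 tops the left panel with a gap of 0.77, and the gaps of the right panel are narrower, 0.17 to 0.33.

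Sebaceous gland genes had a median above 0 in every pairing of the arrays. The lowest of their 4 medians, 0.19, was the highest such minimum among the 36 lists with a median, 8 of which were above 0 in all 4 pairings. The lists were chosen with earlier results of these data known, so this rank is a description and not a test. Of 20 members, 18 had a higher mean (75.8% of all genes). Both microsphere arrays lay above both untreated arrays for 10 members (14.7% of all genes) and below both for 1 (5.24%). The 10 include Far2 and Scd3, below the filter intensity in both untreated arrays. These 2 genes were tested only because other arrays read higher, so their separation is weak evidence. The median difference was 0.30, against 0.10 over all genes. After quantile normalization it was 0.17, against 0.021 over all genes. The pairings gave 0.32 in the number 1 pair, 0.19 in the number 2 pair, 0.23 for microsphere array 1 against untreated array 2 and 0.32 for microsphere array 2 against untreated array 1. Against untreated array 2 alone, 14 of 20 members had a higher microsphere mean (41.5% of all genes), with a median of 0.29. No member passed the test, and all adjusted p-values in limma were 0.999 or above.

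The separated sebaceous genes were mostly enzymes of lipid synthesis. Besides Scd1, Fa2h and Elovl4 they held Elovl3, an elongase of saturated fatty acids, at 40.7 and 40.3 without and 48.8 and 45.7 with microspheres, a small difference in a dim gene. They also held Krt79, a keratin of the sebaceous duct and the hair canal, at 46.4 and 62.6 without and 96.2 and 71.4 with. The others were Cidea and, named after their values were seen, Sdr16c6, Far2, Scd3 and Soat1. Among them are a fatty acyl-CoA reductase (Far2) and an enzyme of cholesterol ester formation (Soat1). All of these were dim in untreated skin, and Far2 and Scd3 lay below the filter intensity in both untreated arrays. Cidea read 35.5 and 35.6 without and 42.0 and 37.8 with microspheres, and Scd3 33.4 and 32.5 and 48.3 and 35.3. Far2 read 31.0 and 34.2 without and 56.9 and 39.3 with. Sdr16c6 read 38.4 and 37.7 without and 64.1 and 47.1 with, and Soat1 36.2 and 39.8 and 41.9 and 64.2. Fabp5, a fatty acid-binding protein of epidermis and sebaceous gland, did not separate. It read 745 and 658 without and 639 and 1193 with, so that microsphere array 1 was the lowest and microsphere array 2 the highest. Mc5r, the melanocortin receptor of sebocytes and also named after its values were seen, was the 1 member lower in both treated arrays.

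The 5 sebaceous markers that had a probeset, of 7 listed, summed to 380.4 and 439 in the untreated arrays and to 616 and 598 in the microsphere arrays. The sums were 719 and 394 in the keratin arrays and 892 in minoxidil array 2. Keratin array 2 was thus within the range of the untreated arrays, and the other 2 values were above both microsphere arrays. Whether gland number or size changed was not tested. Fatty acid and triglyceride synthesis genes, 18 in all and sharing only Scd1 with the sebaceous list, had a higher mean in 18 (75.8% of all genes). They separated upward in 5 (14.7% of all genes) and downward in 0 (5.24%). Their median was 0.28, but 0.01 against untreated array 2 alone, since untreated array 1 was lowest for 17 of 18 (63.9% of all genes). Elovl6, which elongates palmitate, read 46.8 and 64.1 without and 78.1 and 83.7 with. Among 21 cholesterol synthesis genes 5 separated upward (14.7% of all genes) and 0 downward (5.24%), and the list's median was 0.13. Msmo1 was among the 5, at 42.5 and 44.9 without and 70.3 and 53.2 with microspheres. Microsphere array 2 was the highest array for 19 of the 21 (38.5% of all genes).

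**Figure D3:**
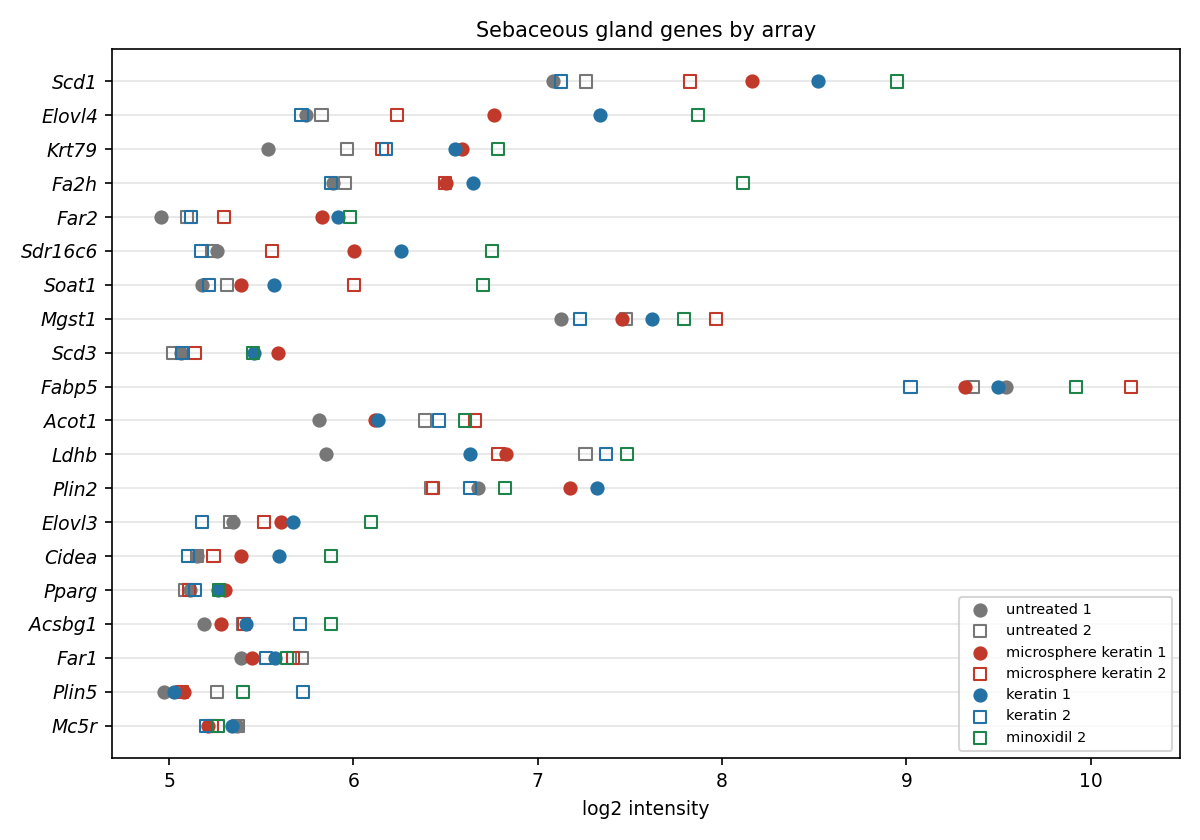
Log2 intensity (horizontal axis) of the 20 sebaceous gland genes, ordered by mean difference, in untreated (grey), microsphere keratin (red) and keratin (blue) arrays and minoxidil array 2 (green), circles for array 1 and squares for array 2. Minoxidil array 1 is not drawn, since its 3′ beta-actin control read only 47.2. Red points lie right of both grey points for 10 genes, among them Scd1, Fa2h and Elovl4, and keratin array 2 lies near the grey points for most genes.

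Genes of the dermal extracellular matrix were higher with microspheres chiefly in array 1. Of 42 members measured, 40 had a higher mean (75.8% of all genes) and 26 were higher in both same-numbered pairs (39.7%). Upward separation was seen for 13 (14.7% of all genes) and downward for 0 (5.24%). The median difference was 0.26. It was 0.47 in the number 1 pair, 0.06 in the number 2 pair, 0.50 for microsphere array 1 against untreated array 2 and 0.07 for microsphere array 2 against untreated array 1. Microsphere array 1 was the highest of the 4 arrays for 35 of 42 members (24.9% of all genes). Sparc, a collagen-binding matrix protein, read 395 and 311 without and 1128 and 444 with microspheres. Pcolce, the enhancer of procollagen cleavage, read 65.4 and 65.3 and 156 and 81.9, and Ogn, the small proteoglycan osteoglycin, 57.9 and 59.9 and 164 and 72.1. All 3 separated the groups, with microsphere array 2 a little above the untreated arrays and microsphere array 1 far above it. The same genes were high in keratin array 1, where Col1a1 read 521 and Sparc 989, against 183 and 480.1 in keratin array 2.

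Antigen presentation and macrophage genes followed the same arrays. MHC class II molecules display peptides on dendritic cells and macrophages. The list for this presentation held 8 genes measured, among them Ctss, Lgmn and Epcam, which are not class II genes. Of the 8, 3 separated upward (14.7% of all genes) and 0 downward (5.24%), with a median difference of 0.32. Cd74, the invariant chain, read 98.8 and 114 without and 236 and 133 with microspheres, and H2-Eb1 60.3 and 67.9 and 151 and 76.2. H2-Aa read 126 and 95.8 and 295 and 112, where microsphere array 2 lay between the untreated arrays. Of 19 macrophage genes, 3 separated upward (14.7% of all genes) and 1 downward (5.24%), and microsphere array 1 was the highest for 15 (24.9%). Lyz2, lysozyme of macrophages and neutrophils, read 72.8 and 74.6 without and 169 and 75.8 with. Markers of other cell types moved with these arrays. The 6 macrophage and dendritic markers summed to 851 in microsphere array 1 and 959 in keratin array 1, and to between 412 and 475 in the other untreated, keratin and microsphere arrays. The 6 fibroblast markers summed to 2027 and 1377 without and 4126 and 1891 with microspheres. Their part in the result was not tested.

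**Figure D4:**
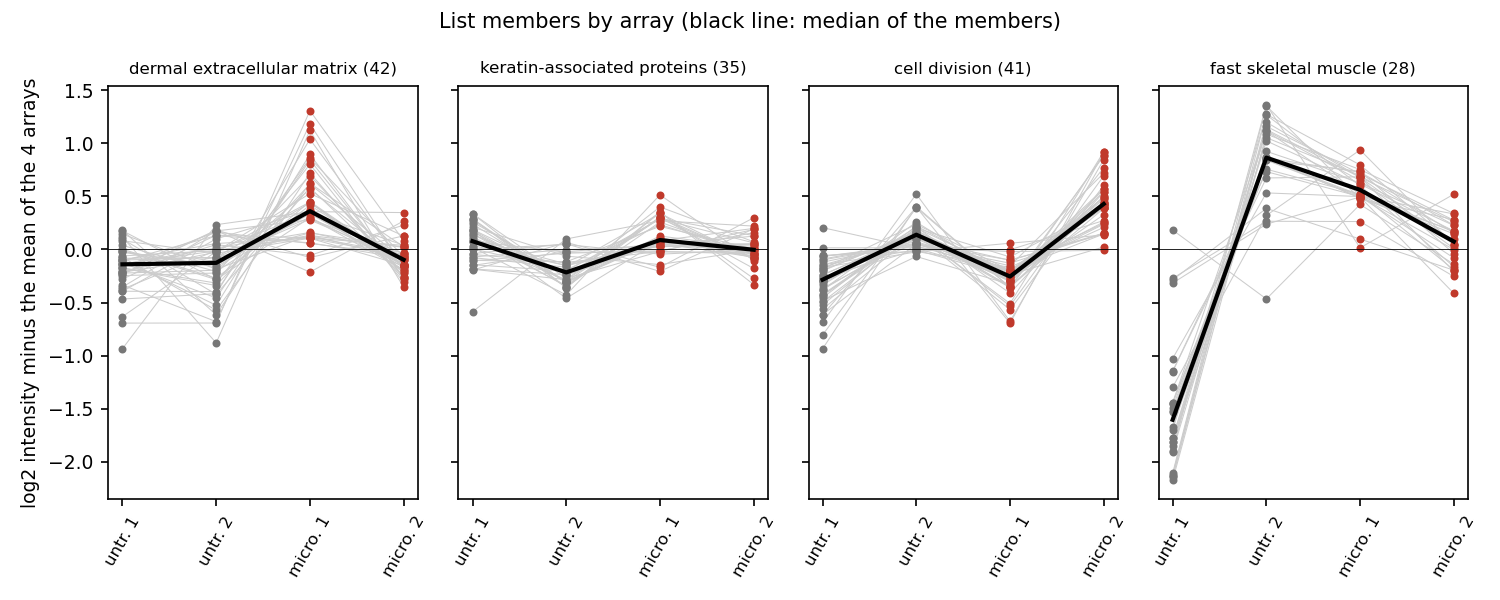
Log2 intensity minus each gene's mean over the 4 arrays (vertical axis) for the members of 4 lists, untreated arrays in grey and microsphere arrays in red, with the list median as a black line. Extracellular matrix genes peak in microsphere array 1, cell division genes in microsphere array 2, keratin-associated proteins are lowest in untreated array 2, and muscle genes are lowest in untreated array 1.

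Hair shaft genes gave no common pattern. Of 12 hair shaft keratins, 9 were higher in both same-numbered pairs (39.7% of all genes). Upward separation was seen for 3 (14.7% of all genes) and downward for 1 (5.24%), all by less than 0.10 on the log2 scale. The median difference was 0.13. It was 0.15 in the number 1 pair, 0.08 in the number 2 pair, -0.30 for microsphere array 1 against untreated array 2 and 0.39 for microsphere array 2 against untreated array 1. Krt35, an early hair keratin of the shaft, read 66.5 and 318 in untreated arrays 1 and 2 and 91.2 and 412 in microsphere arrays 1 and 2. Krt85, another early shaft keratin, read 49.6 and 111 without and 61.1 and 143 with. For both genes the arrays numbered 2 were high and those numbered 1 low in either group, so the difference within a group exceeded that between groups. Against untreated array 2 alone, 4 of 12 had a higher microsphere mean (41.5% of all genes). The hair shaft marker sum was 334 and 708 without and 384 and 903 with.

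Keratin-associated proteins cross-link the keratin filaments of the shaft. Of 35 measured, 29 had a higher mean (75.8% of all genes), 10 separated upward (14.7%) and 1 downward (5.24%). The median difference was 0.12, and it was 0.03 in the number 1 pair, 0.20 in the number 2 pair, 0.33 for microsphere array 1 against untreated array 2 and -0.09 for microsphere array 2 against untreated array 1. Untreated array 2 was the lowest of the 4 arrays for 27 members (8.8% of all genes). Against it alone, 31 of 35 had a higher microsphere mean (41.5% of all genes). Krtap1-5 read 66.8 and 64.4 without and 92.9 and 83.1 with microspheres. Krtap2-4 read 48.3 and 45.05 and 72.4 and 57.7, and Krtap7-1 40.02 and 64.3 and 72.4 and 70.00. These 3 separated the groups, Krtap1-5 and Krtap2-4 with untreated arrays close to each other. Because close copies of these genes may share probes, values of single members are uncertain. Of 14 inner root sheath genes, which mould the growing shaft, 3 separated upward (14.7% of all genes) and 0 downward (5.24%). The 3 were S100a3, Krt79, also in the sebaceous list, and Tgm3, also in the suprabasal list. The groups overlapped for Krt26, Krt27, Krt28, Krt71, Krt73, Krt75 and Tchh. All of these but S100a3, Krt79 and Krt71 were named after their values were seen.

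Most hair matrix and cell division genes were highest in microsphere array 2. Of 20 matrix regulators measured, 1 separated upward (14.7% of all genes) and 0 downward (5.24%). Microsphere array 2 was the highest array for 15 of them (38.5% of all genes) and microsphere array 1 the lowest for 12 (19.1%). The median difference was 0.07, and it was -0.07 in the number 1 pair, 0.16 in the number 2 pair, -0.52 for microsphere array 1 against untreated array 2 and 0.74 for microsphere array 2 against untreated array 1. After quantile normalization the median was -0.053. Shh, which encodes the Sonic hedgehog signal that drives follicle growth, read 51.6 and 45.96 in untreated arrays 1 and 2 and 42.2 and 137 in microsphere arrays 1 and 2. Microsphere array 1 was thus the lowest of the 4, and microsphere array 2 stood far above the other 3. Gli1, a target of the pathway, read 37.3 and 50.8 without and 46.95 and 81.6 with. Ptch1, the receptor and also a target, read 98.8 and 113 without and 63.1 and 194 with. For both genes microsphere array 2 was the highest array, and for Ptch1 microsphere array 1 was the lowest.

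Among transcription factors of the matrix, the order of the arrays varied. Lef1, an effector of WNT signals, read 53.2 and 66.7 without and 49.95 and 86.7 with microspheres. Hoxc13, which switches on hair keratin genes, read 129 and 214 without and 77.9 and 226 with. Microsphere array 1 was the lowest and array 2 the highest of the 4 for both. Msx2 read 68.6 and 99.3 without and 63.2 and 128 with, in the same order. Foxn1, which drives keratinocytes into hair differentiation, read 36.1 and 54.96 without and 35.2 and 52.5 with, low in both number 1 arrays and high in both number 2 arrays.

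Of 41 cell division genes, 2 separated upward (14.7% of all genes) and 1 downward (5.24%), with a median of 0.16. The medians were 0.01 in the number 1 pair, 0.28 in the number 2 pair, -0.40 for microsphere array 1 against untreated array 2 and 0.78 for microsphere array 2 against untreated array 1. Microsphere array 2 was the highest for 38 of 41 (38.5% of all genes). Untreated array 1 was the lowest for 21 (63.9%) and microsphere array 1 for 20 (19.1%). Mcm5, a subunit of the replicative helicase, read 35.4 and 56.1 without and 48.7 and 89.1 with, and Mcm7, another subunit, 79.3 and 201 and 118 and 281. Uhrf1, which maintains DNA methylation after replication, read 52.5 and 70.1 without and 58.5 and 135 with, and Cdk1, the kinase that starts mitosis, 43.4 and 99.7 and 59.2 and 129. All 4 were highest in microsphere array 2 and lowest in untreated array 1, and untreated array 2 was above microsphere array 1 for each. Against untreated array 2 alone, 9 of 41 had a higher microsphere mean (41.5% of all genes).

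Few growth factors of the follicle separated by group. Of 19 hair growth factors and receptors, 1 separated upward (14.7% of all genes) and 2 downward (5.24%), with a median of 0.10. Igf1, a growth factor of the dermal papilla, was the 1 above, at 44.8 and 48.9 without and 77.8 and 53.1 with microspheres. Fgf7, a growth factor for keratinocytes, read 39.4 and 43.1 and 37.2 and 37.5, slightly lower in both treated arrays. Vegfa, which promotes vessels around growing follicles, read 40.6 and 63.5 and 54.8 and 45.8, and its groups overlapped. Sult1a1, the sulfotransferase that activates minoxidil, read 54.2 and 50.6 and 107 and 50.9, high in microsphere array 1 alone. Of 9 dermal papilla genes, 0 separated upward (14.7% of all genes) and 3 downward (5.24%), Fgf7 among them. These 3 were dim, with gaps of at most 0.072 on the log2 scale, and the list's median difference was 0.002. Of 10 melanocyte genes, 9 had a higher mean (75.8% of all genes), and 3 separated upward (14.7%) and 0 downward (5.24%). Their median difference was 0.15, and it was 0.09 in the number 1 pair, 0.16 in the number 2 pair, 0.14 for microsphere array 1 against untreated array 2 and 0.37 for microsphere array 2 against untreated array 1, above 0 in all 4 pairings. Pmel, of the melanosome fibrils, read 34.8 and 39.6 without and 42.01 and 44.5 with, near the filter on low values. Dct, an enzyme of melanin synthesis, read 60.5 and 66.3 and 54.5 and 104, with microsphere array 1 the lowest.

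In the epidermis between follicles genes lay on both sides. Of 11 basal genes, 1 separated upward (14.7% of all genes) and 0 downward (5.24%). Of 23 suprabasal genes, 5 separated upward (14.7%) and 4 downward (5.24%). Krt5, a keratin of basal cells, read 258 and 464 without and 494 and 477 with microspheres, and its partner Krt14 282 and 243 and 386 and 227. Untreated array 1 alone was low for Krt5. Krt10, a keratin of differentiating cells, read 43.97 and 74.6 and 64.5 and 62.2, and its partner Krt1 43.3 and 52.9 and 45.1 and 50.2, with the treated arrays between the untreated ones. Dmkn, the secreted protein dermokine of differentiating cells, separated upward at 53.8 and 57.8 and 92.5 and 64.04. Of 9 wound and stress genes measured, 3 separated upward (14.7% of all genes), Defb6, Krt6a and Krt17, and 0 downward (5.24%). Defb6, an antimicrobial beta-defensin, read 57.1 and 57.2 without and 137 and 61.3 with. Krt6a, a keratin of wounds and of the follicle, read 149 and 163 and 248 and 174. Sprr1a, a cornified envelope precursor induced by stress, read 109 and 72.3 and 225 and 91.1 and overlapped. In all 3 genes the excess lay in microsphere array 1, and keratin array 1 read 164, 247 and 350.1 for them.

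Fast skeletal muscle genes had the highest median of the lists, and untreated array 1 was far below the other 3 arrays for most of them. Of 28 fast skeletal muscle genes, 27 had a higher mean (75.8% of all genes), with a median difference of 0.67. However, 0 separated upward (14.7% of all genes) and 0 downward (5.24%). The median was 2.20 in the number 1 pair, -0.78 in the number 2 pair, -0.34 for microsphere array 1 against untreated array 2 and 1.67 for microsphere array 2 against untreated array 1. Untreated array 1 was the lowest for 26 members (63.9% of all genes) and untreated array 2 the highest for 24 (27.1%). Ckm, the muscle creatine kinase, read 171 and 1719 in untreated arrays 1 and 2 and 1199 and 898 with microspheres. Atp2a1, the calcium pump of fast fibres, read 141 and 1346 and 1068 and 802, and Acta1, skeletal actin, 353 and 2254 and 2054 and 1453. In each of these 3 genes the treated arrays lay between the untreated ones. The 7 muscle markers summed to 2333 and 12284 without and 8572 and 7023 with. Oxidative phosphorylation genes had a higher mean in 70 of 70 (75.8% of all genes), with a median of 0.31, and 1 separated upward (14.7%). Untreated array 1 was the lowest for all 70 (63.9% of all genes), and the median against untreated array 2 alone was -0.38. Of 45 ribosomal protein genes, 15 separated upward (14.7% of all genes) and 1 downward (5.24%), with a median of 0.30 that was 0.03 against untreated array 2. Actb, the cytoplasmic actin used as a loading control, read 614 and 1449.8 without and 1610.4 and 1487 with, so untreated array 1 was low there too. How far the muscle content or the quality of untreated array 1 bears on these lists was not tested.

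**Figure D5:**
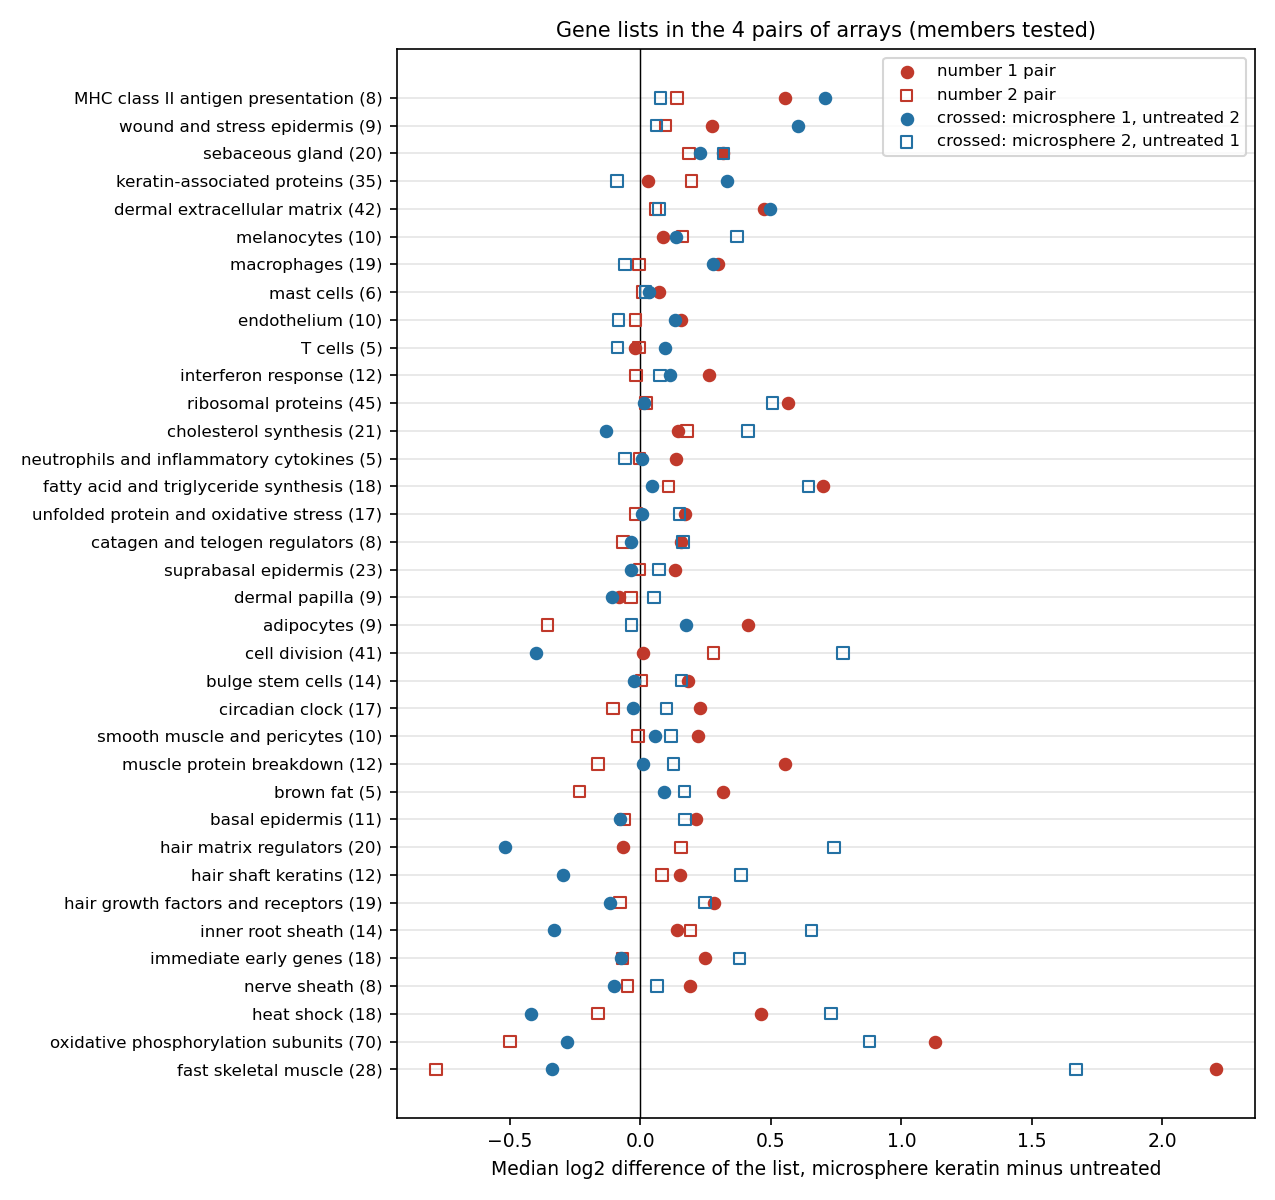
Median log2 difference, microsphere minus untreated, of each gene list (horizontal axis) in the same-numbered pairs (red) and crossed pairs (blue), with the number of members tested in brackets and lists ordered by their median against untreated array 2. The sebaceous gland list lies between 0.19 and 0.32 in all 4 pairs, while fast skeletal muscle runs from -0.78 to 2.20.

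Microsphere keratin was also set against the group that received 1% keratin. Of 11235 genes, limma gave 0 at an adjusted p below 0.05 (0.0%) and 31 at an unadjusted p below 0.05 (0.276%). Keratin-associated proteins had a median of -0.27, microsphere minus keratin. Krtap2-4 read 108 and 68.5 with keratin against 72.4 and 57.7 with microspheres, a difference of -0.41 ± 0.27 (SE, n = 2). Suprabasal genes had a median of -0.21, with Krt1 at 63.5 and 80.8 with keratin and 45.1 and 50.2 with microspheres, a difference of -0.59 ± 0.20 (SE, n = 2). Both microsphere arrays lay below both keratin arrays for Krt1 and overlapped them for Krtap2-4. The sebaceous and extracellular matrix lists had medians of 0.03 and 0.01. For Scd1 the keratin arrays, 367 and 139.7, lay on either side of the microsphere arrays, 286 and 227. For Fa2h they did likewise, at 100.5 and 58.8 against 90.5 and 90.3.

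The authors compared single arrays of the same number, with no replicate and a fold minimum of 2 for number 1 and 1.3 for number 2. Over listed probesets, the number 1 control column had a Spearman correlation of 0.415 with untreated array 1, its highest with any array. The number 2 control column had 0.935 with untreated array 2. That the number 1 control is untreated array 1 is therefore taken from its number. The authors' deposited table for number 1 listed 9387 probesets, 8403 higher with microspheres and 984 lower. The authors' deposited table for number 2 listed 7639, 4159 higher and 3480 lower. Both of the authors' deposited tables held 2894 probesets, 30.8% of the number 1 table and 37.9% of the number 2 table. Of these, 1308 were higher in both, 39 lower in both and 1547 of opposite sign. The 1347 with the same sign are 14.3% of the number 1 table and 17.6% of the number 2 table. In the authors' deposited tables Col1a1 was 29.30-fold and 1.91-fold higher, Elovl4 9.70-fold and 1.88-fold, Scd1 18.40-fold and 1.61-fold, and Fa2h 8.20-fold and 2.04-fold. For these 4 genes the folds of the value table in the same pairs were smaller. For Twf2, Klhdc2, Rb1cc1 and Samd5, lower in the value table, the authors' deposited table for number 1 has the opposite sign. For Hspa5, the other probeset, not the one whose intensities are given above, was 4.89-fold higher in that table. The large deficit of Hspa5 in the number 1 pair thus rests on 1 probeset of the value table. Across listed probesets, log2 differences of the value table were 0.150 times those of the authors' deposited table for number 1 (r = 0.585) and 0.398 times for number 2 (r = 0.912). Probesets are not independent replicates. The sign was the same for 85.1% of probesets in number 1 and 99.9% in number 2. How the authors' columns were scaled was not stated, so their folds and those of the value table are not interchangeable.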

How the data were processed

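Skin RNA, 9.4 µg a sample per the labels' protocols, was turned into biotinylated cRNA for HT_MG-430_PM arrays (Affymetrix, per the file headers). The submitters' processing notes name RMA, Affymetrix Expression Console and Transcriptome Analysis Console. For 45141 probesets the authors deposited linear intensity values of 8 arrays, with medians of 35.9 to 37.7; how background and scaling were handled in that table is not given in the sources used here. The log2 values and the signed fold changes, a score, come from the authors' deposited comparison tables, each of 1 array against 1. The p-values deposited by the authors in one of these tables were not used. The sheet named for minoxidil array 1 holds the 9387 rows of the number 1 microsphere table again, at a lower fold minimum.

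Intensities were taken to log2. Of 28918 probesets in the comparison tables, 23804 had 1 gene symbol. Each of 14980 genes was represented by its brightest probeset over 8 arrays, and genes with a mean at or above the 25th percentile (35.2) were tested, 11235 in all. limma 3.58.1 in R 4.3.3 fitted group means to 6 arrays (untreated, keratin, microsphere keratin) with eBayes (trend on intensity, 3 residual degrees of freedom) and a Benjamini-Hochberg threshold of 0.05. Minoxidil was left out of the fit; the fit on all 8 arrays is an alternative. The comparison, the fit, the gene lists and the naming rule were chosen with earlier results of these data known. The fit was tested on simulated data.

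Named were up to 12 genes a direction with the widest gap between groups, members of each list with the largest difference (4) or gap (2), the 10 lowest p-values, up to 8 genes a direction shared by the authors' tables or largest in a pair, and a fixed set of hair and epidermal genes. Predicted genes were skipped. No 2 arrays held identical values. Shared replicate numbers are not stated to pair arrays. Alternatives covered the arrays fitted, scaling, background correction, filters, probeset choice, the variance model, the replicate block and each array left out. Figures used matplotlib 3.10.9 in Python 3.11.15.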

Additional observations from a re-analysis of the deposited data

How the results depend on the processing

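Under no alternative did a gene reach an adjusted p below 0.05 in limma. The 55 genes at an unadjusted p below 0.05 became 10 with all 8 arrays fitted, 212 without the filter, 10 above the median intensity, 749 over every probeset, 23 without the intensity trend and 31 with array weights. The labels do not say what the shared numbers mean, and with 2 numbers the data cannot settle whether they pair the arrays. Across genes, same-numbered deviations from the group means correlated at 0.206 for untreated and microsphere arrays, 0.594 for untreated and keratin and 0.279 for keratin and microsphere. With the replicate number as a replicate block, 362 genes reached an unadjusted p below 0.05 and 0 an adjusted one. Leaving out 1 array gave 44 to 1222, the most without untreated array 2, which leaves untreated array 1, the array that stood apart, as its whole group. Where 1 array is left in a group, it is assumed to vary like the other groups.

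Genes with both microsphere arrays below both untreated arrays, 589, became 1010 after quantile normalization, 383 after normexp with an offset of 50 or 16, 1589 without the filter, 176 above the median intensity and 6251 over every probeset. Those above, 1646, became 1092 above the median intensity and 4856 over every probeset. With 1 array left out, counts can only grow by construction, to 3380 below (without untreated array 1) and 7426 above (without untreated array 2), from 589 and 1646 with only a keratin array left out. Genes 1.5-fold apart in both pairs, 5, became 2, 1, 13 and 19 after quantile normalization, normexp with an offset of 50, with 16, and over every probeset. Probesets listed the same way in both of the authors' deposited tables, 1347, became 66 at a fold of 2 and 2545 with the lower minimum for number 1, an alternative added once the tables had been seen.

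The sebaceous median of 0.30 was 0.17 after quantile normalization, 0.43 above the median intensity and 0.25 to 0.41 with 1 array left out. The hair shaft median of 0.13 was 0.20 with a normexp offset of 16, 0.21 above the median intensity and -0.099 to 0.24 with 1 array left out. Such ranges were -0.027 to 0.23 for all genes, -0.022 to 0.26 for keratin-associated proteins, -0.29 to 0.48 for matrix regulators and -0.17 to 0.50 for cell division. Of 924 mean differences of named genes under other settings, 918 kept their sign. The exceptions were Ptch1 (-0.15), Lef1 (-0.0010) and Msx2 (-0.057) after quantile normalization, Krt1 (0.0078 and 0.020 with normexp offsets of 50 and 16) and Vegfa (0.018 with 16). With 1 array left out, 473 of 510 kept it, and the ranges of the genes that did not were Krt1 -0.15 to 0.14, Krt10 -0.24 to 0.53, Krt14 -0.20 to 0.56, Krt35 -0.71 to 1.54, Krt85 -0.28 to 0.94, Shh -0.21 to 1.49, Ptch1 -0.74 to 0.88, Lef1 -0.26 to 0.54, Hoxc13 -1.09 to 0.44, Mcm7 -0.14 to 1.202, Uhrf1 -0.053 to 1.16, Cdk1 -0.19 to 1.01, Dct -0.22 to 0.71, Fabp5 -0.13 to 0.77, Atp2a1 -0.54 to 2.72, Ckm -0.73 to 2.60, Acta1 -0.38 to 2.29, Vegfa -0.34 to 0.30, Sult1a1 -0.043 to 1.03, Hnrnpa3 -0.013 to 1.27, Tkt -0.060 to 1.37, Msx2 -0.39 to 0.64, Foxn1 -0.35 to 0.25, Igfbp3 -1.19 to 0.10 and Krt15 -0.10 to 0.98. The cause was not tested. With 2 arrays a group and dim genes near the array background, differences below the spread between arrays were not detectable.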

Other observations

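Metallothioneins, which bind zinc and copper and are induced by metals and stress, were among the brighter genes higher with microspheres. Mt1 read 519.8 and 568 in untreated arrays 1 and 2 and 696 and 1012 in microsphere arrays 1 and 2, and both of its probesets separated the groups. Mt2 read 308 and 507 without and 454 and 919 with, higher in both same-numbered pairs, while microsphere array 1 lay below untreated array 2. In the keratin arrays Mt1 read 543 and 774 and Mt2 322 and 598. Neither gene passed the test (adjusted p 0.999 in limma).

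Igfbp3, which binds insulin-like growth factors, was high in untreated array 2 alone, at 112 against 45.5 in untreated array 1 and 45.4 and 52.7 in the microsphere arrays. Krt15, a keratin of the follicle bulge, was high in microsphere array 1, at 178 against 84.04 in microsphere array 2 and 78.8 and 103 in the untreated arrays. Of 14 bulge genes, 3 separated upward (14.7% of all genes) and 0 downward (5.24%), with a median difference of 0.07. The lists for T cells (5 genes), mast cells (6) and neutrophils and inflammatory cytokines (5) had medians of 0.01, 0.04 and 0.07. Of their members 0, 1 and 0 separated upward (14.7% of all genes), and 0 in each list downward (5.24%).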
